A study of Mus musculus with 8 samples.

Results

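Transcripts of 8 chemokines and of interleukin 1 beta were examined in the livers of young Rragc S74N/+ and Rragc+/+ mice. The chemokines were Cxcl1, Cxcl9, Cxcl12, Cxcl13, Ccl5, Ccl6, Ccl9 and Ccl24, and they were taken with Il1b by gene name from a table of normalized read counts. All 9 were present among the 14506 genes of the table, and all 9 had the mean of at least 10 that was required for testing, which 11174 genes reached. RagC, the product of Rragc, is a GTPase that passes nutrient signals to mTORC1, and S74N is a serine-to-asparagine substitution carried on 1 allele in every cell of the animal. The knock-in was made by gene editing and the edited exon also holds silent changes, and both groups were fed chow. The mice were on a C57BL/6 background, and the labels do not give their sex. There were 4 livers of each genotype, each listed as a sample of its own in labels that name no animal, so p-values measure the spread between these samples. Rragc+/+ replicates 1 to 3 were 3 months old and replicate 4 was 2.5 months old, whereas Rragc S74N/+ replicates 1 and 2 were 3 months old, replicate 3 was 2.5 months old and replicate 4 was 2 months old. The 2-month age occurred in a single Rragc S74N/+ mouse, so age and genotype cannot be told apart for that liver. Replicate numbers only name a liver, and values given for the 4 livers of a genotype stand in the order of these numbers. The study profiled young organs to ask whether inflammatory signals are present before inflammation can be seen.

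Chemokines are small secreted proteins that bind G protein-coupled receptors on leukocytes and set the direction in which these cells move. Some, such as Cxcl12, are made constitutively, while others are induced by NF-kB, by interferon gamma or by interleukin 1 itself. Interleukin 1 beta is made as a precursor, mainly by myeloid cells, and is released after cleavage by caspase-1, so the transcript level does not give the level of active cytokine. In liver the sources include Kupffer cells (the resident macrophages), sinusoidal endothelial cells, stellate cells and hepatocytes. The measurement was made in whole tissue, in which fewer cells of a type and less RNA per cell cannot be told apart.

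The 9 genes lie on 4 chromosomes of GRCm38. Chromosome 5 holds Cxcl1 (90891241 to 90893115, forward strand), Cxcl9 (92321347 to 92328079, reverse), Cxcl13 (95956951 to 95961068, forward) and Ccl24 (135569937 to 135573049, reverse). Cxcl12 occupies bases 117168535 to 117181367 of chromosome 6 (forward) and Il1b bases 129364570 to 129371139 of chromosome 2 (reverse). The other three form a cluster on the reverse strand of chromosome 11, with Ccl5 from 83525778 to 83530518, Ccl9 from 83572919 to 83578636 and Ccl6 from 83587882 to 83593087. Only 9.245 kb separate Ccl9 from Ccl6, and 42.4 kb separate Ccl5 from Ccl9. All 9 are protein-coding genes.

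RefSeq promoter windows on GRCm38.p6 were found for 7 of the 9 genes, and not for Ccl5 or Ccl24. The 250 bases before the RefSeq start are shown for 3 of them. For Cxcl13 and Cxcl1 this start is not the gene start given above. Cxcl13 was the only transcript whose values did not overlap between the genotypes, and Cxcl1 and Il1b are the inflammatory pair with the fewest reads. The windows are chr5:95956689-95956938 on the forward strand for Cxcl13, chr5:90890995-90891244 on the forward strand for Cxcl1 and chr2:129371140-129371389 on the reverse strand for Il1b. Capitals mark matches to a kB or a TATA motif.
Cxcl13: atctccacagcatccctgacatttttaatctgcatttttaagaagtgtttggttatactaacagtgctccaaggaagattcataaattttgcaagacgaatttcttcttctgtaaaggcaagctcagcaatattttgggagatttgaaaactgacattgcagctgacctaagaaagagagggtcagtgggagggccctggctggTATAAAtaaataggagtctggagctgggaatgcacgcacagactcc
Cxcl1: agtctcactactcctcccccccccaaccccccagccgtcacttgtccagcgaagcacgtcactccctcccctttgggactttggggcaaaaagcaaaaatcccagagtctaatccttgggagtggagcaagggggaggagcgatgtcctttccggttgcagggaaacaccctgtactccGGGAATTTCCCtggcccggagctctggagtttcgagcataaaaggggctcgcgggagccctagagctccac
Il1b: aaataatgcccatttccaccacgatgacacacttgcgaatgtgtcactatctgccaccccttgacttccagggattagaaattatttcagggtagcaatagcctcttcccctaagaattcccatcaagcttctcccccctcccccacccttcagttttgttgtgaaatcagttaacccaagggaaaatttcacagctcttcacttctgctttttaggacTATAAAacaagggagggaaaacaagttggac
Motifs were searched on both strands of these 250 bases. The kB motif, the site of NF-kB, occurred in 3.9% of 32851 promoter windows and in those of Cxcl1 and Ccl9. In Cxcl1 a pair of overlapping matches ran from base -71 to base -61, and in Ccl9 the match ran from base -35 to base -26, counted back from the start. TATAAA occurred in 12.4% of windows and in those of Il1b, Cxcl13, Cxcl9 and Ccl9. It ran from base -31 to base -26 in Il1b and from base -46 to base -41 in Cxcl13. The interferon motifs TTCNNNGAA (GAS, in 7.02% of windows) and ISRE (in 2.98%) and the E-box CACGTG (in 6.02%), to which Tfeb can bind, matched none of the 7 windows. The windows of the neighbours Ccl6 and Ccl9 shared a run of 13 bases, the longest between any pair of the 7. A match is a run of letters and does not show that a site was bound.

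Reads were few for most of these transcripts. The reads recovered in listed genes numbered from 4313076 to 6632108 per liver, and the 9 transcripts together took from 0.0192% to 0.0320% of them. Summed over the 8 livers, 6982 reads fell in Cxcl12, 2216 in Ccl9, 1200 in Cxcl9, 1132 in Ccl6, 264 in Ccl5, 152 in Ccl24, 113 in Cxcl13, 105 in Il1b and 91 in Cxcl1. Since reads were taken at the 3′ ends of messenger RNAs, levels were compared between genes as normalized read counts without division by length. Cxcl12 was the most abundant, with a mean over all livers of 836, and lay above 94.6% of the listed genes or level with them. It was followed by Ccl9 at 268, Cxcl9 at 139, Ccl6 at 134, Ccl5 at 31.0, Ccl24 at 18.6, Cxcl13 at 13.7, Il1b at 12.3 and Cxcl1 at 11.1. The median over all listed genes was 45.1. In this order the ranges over the 8 livers were separate between Cxcl12 and Ccl9 and between Ccl6 and Ccl5, and all other neighbours overlapped. Cxcl9 was above Ccl6 in 3 of 8 livers and Cxcl13 above Il1b in 4 of 8, so these neighbours did not differ beyond their spread.

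No transcript of the group passed the threshold between the genotypes. By limma with Benjamini-Hochberg adjustment over all tested genes, 0 of 9 had an adjusted p under 0.05, where 1 gene of the 11174 (0.00895%) did. Without adjustment 1 of 9, Cxcl13, had a p under 0.05, against 5.17% of all tested genes, or 2.37% if those higher in Rragc S74N/+ alone are counted. This background itself moved with single livers, from 265 higher and 313 lower genes to 892 and 798 without Rragc S74N/+ replicate 3 and to 124 and 191 without replicate 4. edgeR and DESeq2 on the recovered reads likewise called 0 of 9 after adjustment (1 gene of all, 0.00895%, with edgeR and 10 genes, 0.0895%, with DESeq2), and each had Cxcl13 alone under 0.05 before it, where 3.11% and 3.44% of all genes were and were higher in Rragc S74N/+. By sign 8 of the 9 log2 fold changes were above 0, as were 51.3% of all tested genes, and their median was 0.35 against 0.012 over all tested genes. Values that did not overlap between the genotypes were found for 1 of 9, again Cxcl13, against 2.94% of all tested genes. Cxcl1, Il1b and Cxcl13 had Rragc+/+ means under 10 and reached the mean of 10 only through the Rragc S74N/+ livers. The 9 were also chosen with earlier results of these data known, so the counts and the median over them are a description.

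**Figure D1:**
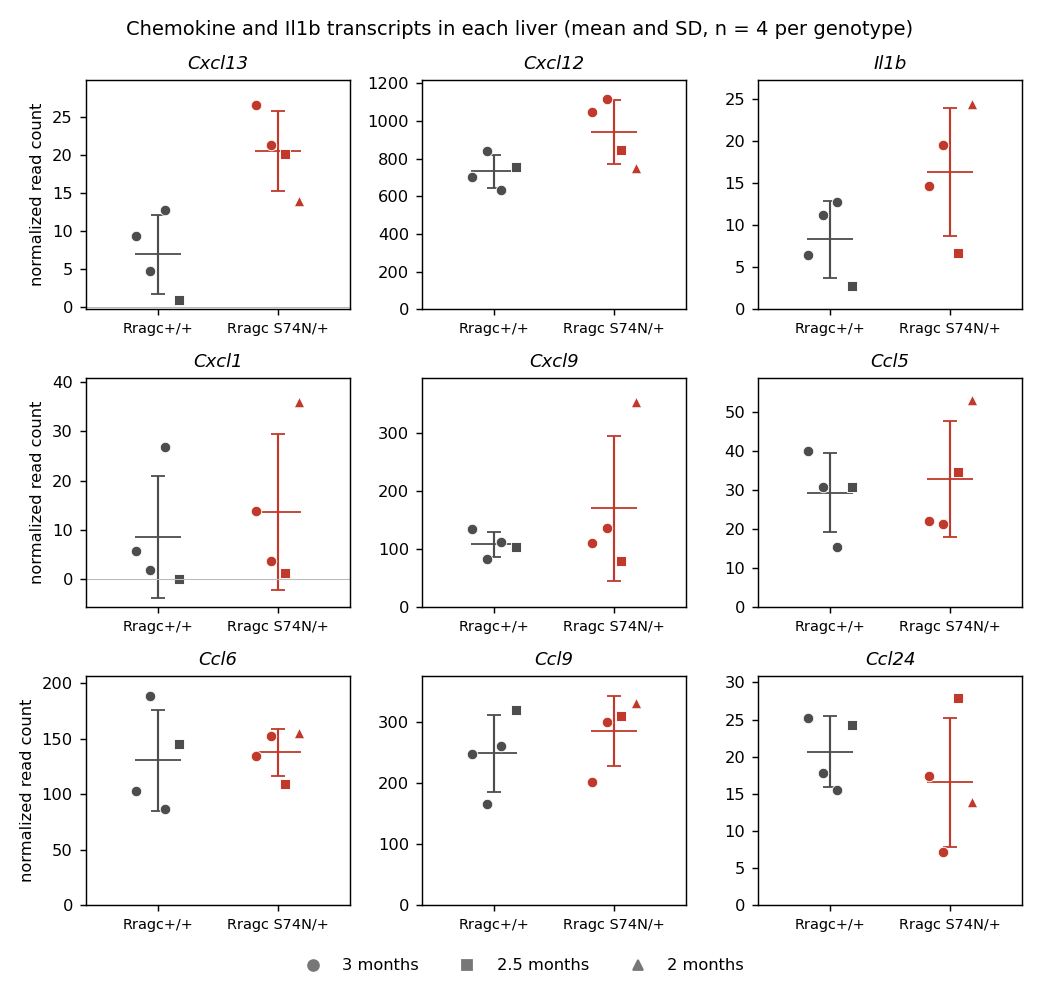
Normalized read count of each transcript (vertical axes, each from 0 or below) in the 8 livers, with 1 point per liver shaped by age, a horizontal line at the mean of each genotype and bars of 1 SD (n = 4). Cxcl13 is the only panel in which all 4 Rragc S74N/+ livers (13.9 to 26.6) lie above all 4 Rragc+/+ livers (0.934 to 12.7).

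Cxcl13, which draws B cells through the receptor Cxcr5 and organises lymphoid follicles, had normalized counts of 9.32, 4.68, 12.7 and 0.934 in the Rragc+/+ livers, against 26.6, 21.3, 20.1 and 13.9 in the Rragc S74N/+ livers. The lowest Rragc S74N/+ liver was the 2-month-old one and stood just above the highest Rragc+/+ liver, with 17 reads against 9. The means were 6.92 ± 5.18 and 20.5 ± 5.24 (SD, n = 4 each), a ratio of 2.96. On the scale of log2(normalized count + 1) the difference was 1.74 with a standard error of 0.65 and a 95% interval from 0.33 to 3.15 (limma adjusted p = 0.846). Its unadjusted limma p was under 0.05, and an exact two-sided permutation test over the 70 labellings gave p = 0.0286, the smallest that 4 livers against 4 allow. Groups that did not overlap with Rragc S74N/+ higher were found for 1.3% of all tested genes. The values rest on 1 to 29 reads per liver. In 3-month-old mice alone, 2 against 3, the log2 difference was 1.42, with an unadjusted limma p above 0.05 (adjusted p = 0.841), and with age as a factor it was 2.01 (limma adjusted p = 0.842).

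Kupffer cell and B cell markers were set beside Cxcl13. The 12 Kupffer cell markers all had reads in every liver, and their summed normalized count ran from 3183 to 4891 in Rragc+/+ and from 3170 to 5177 in the Rragc S74N/+ livers. With the log2 of this sum as a covariate, a setting chosen after seeing the data, the log2 difference of Cxcl13 was 1.71, with an unadjusted limma p under 0.05. Expressed per 1000 Kupffer cell marker counts, Cxcl13 was at 1.90 ± 1.595 in Rragc+/+ and 5.40 ± 2.06 in the Rragc S74N/+ livers (SD, n = 4 each), and the ranges of 0.191 to 4.0 and 3.985 to 8.40 overlapped slightly. Within the list Marco, a scavenger receptor, was higher without overlap at 88.9 ± 39.2 against 22.2 ± 2.33 (SD, n = 4 each). Cd163, the haemoglobin scavenger receptor, was lower without overlap at 33 ± 9.94 against 68.7 ± 34.6 (SD, n = 4 each). For Cd163 the groups only just separated, with 42.4 in the highest Rragc S74N/+ liver and 43.0 in the lowest Rragc+/+ liver. Groups without overlap were found for 2.94% of all tested genes. C1qc, a complement subunit, and Adgre1, which encodes F4/80, had log2 fold changes of 1.03 and 0.80 (unadjusted limma p under 0.05 and adjusted p = 0.846 for both). Of the 12 markers 5 had log2 fold changes under 0, where 51.3% of all tested genes were above 0.

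The 9 B cell markers summed to between 99.1 and 162 in Rragc+/+ and between 203 and 298 in the Rragc S74N/+ livers, without overlap. Within Rragc S74N/+ the order differed from that of Cxcl13, since replicate 4 had the lowest Cxcl13 and the highest sum. Only Igkc and Ighm, both immunoglobulin genes, reached the mean required for testing. Igkc was at 57.1 ± 15.3 and 141 ± 26.6 (SD, n = 4 each) and gave most of the difference in the sum. Its groups did not overlap (limma adjusted p = 0.846), as for 2.94% of all tested genes. Cd22 and Pax5 were among the markers that had no reads in at least 1 liver. Cd79a and Cd79b, which encode the signaling subunits of the B cell receptor, had means of 5.85 against 7.32 and of 9.84 against 8.50. The part of B cells in the level of Cxcl13 was not tested. Cxcr5 was not analysed here.

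Cxcl12, which holds Cxcr4-bearing leukocytes in place and is made by stromal and endothelial cells, had normalized counts of 703, 840, 631 and 757 in the Rragc+/+ livers, against 1048, 1114, 846 and 751 in the Rragc S74N/+ livers. Of the Rragc S74N/+ livers 3 were above every Rragc+/+ liver, and that of the 2-month-old mouse lay within the Rragc+/+ range. The means were 733 ± 88.1 and 940 ± 170 (SD, n = 4 each). The log2 difference was 0.35 with a standard error of 0.20 and a 95% interval from -0.08 to 0.77 (limma adjusted p = 0.846, exact two-sided permutation p = 0.114), so it did not exceed the spread between livers. Read depth was not short here, with 446 to 1254 reads per liver. Without the 2-month-old mouse the Rragc S74N/+ mean was 1003 ± 140 (SD, n = 3), and all 3 livers were above the Rragc+/+ maximum. In 3-month-old mice alone the log2 difference was 0.59 (limma adjusted p = 0.841), and with age as a factor it was 0.46 (limma adjusted p = 0.868), both with an unadjusted p under 0.05.

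Markers of the cells that make Cxcl12 were set beside it. The 12 sinusoidal endothelial markers summed to between 2012 and 2770 in Rragc+/+ and between 2295 and 2763 in the Rragc S74N/+ livers. Their log2 fold changes were above 0 for 6 of 12, as were those of 51.3% of all tested genes. Of these markers Lyve1, a hyaluronan receptor, and Pecam1, an endothelial adhesion molecule, had log2 fold changes of 1.03 and 0.88 (unadjusted limma p under 0.05 and adjusted p = 0.846 for both). The 12 stellate cell markers summed to between 2507 and 2894 in Rragc+/+ and between 2123 and 2841 in the Rragc S74N/+ livers. Among them Ecm1 (354 ± 69.5 against 225 ± 44.5) and Colec11 (139 ± 10.9 against 115 ± 10.006) were lower in Rragc S74N/+ without overlap (SD, n = 4 each), as 2.94% of all tested genes were without overlap in either direction. Col1a1 had a log2 fold change of 0.96 (unadjusted limma p under 0.05, adjusted p = 0.846). The ranges of both sums overlapped between the genotypes, and their part in the level of Cxcl12 was not tested. Because Cxcl12 gave between 43.4% and 65.9% of the summed normalized count of the 9 transcripts, their sum mostly followed it. That sum ran from 1174 to 1384 in Rragc+/+ and from 1434 to 1778 in the Rragc S74N/+ livers. Without Cxcl12 it ran from 503 to 627 and from 542 to 981.

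**Figure D2:**
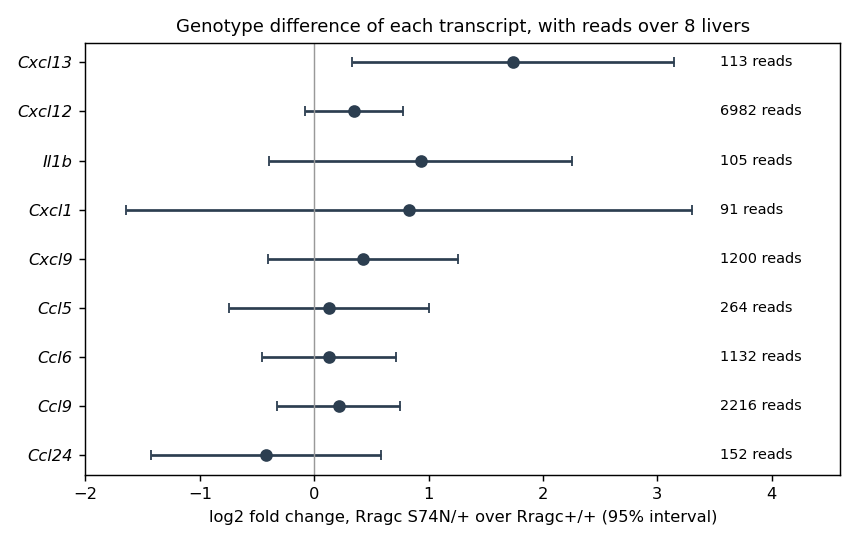
Difference of each transcript between the genotypes as the log2 fold change of Rragc S74N/+ over Rragc+/+ (horizontal axis) with its 95% interval from limma, and the reads summed over the 8 livers at the right. Only the interval of Cxcl13 (0.33 to 3.15) lies wholly above 0, and those of Cxcl1 (-1.65 to 3.30) and Il1b (-0.39 to 2.25) are wide. These 3 reached the mean required for testing only through the Rragc S74N/+ livers.

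Il1b had normalized counts of 6.53, 11.2, 12.7 and 2.80 in the Rragc+/+ livers, against 14.7, 19.6, 6.69 and 24.5 in the Rragc S74N/+ livers. The groups overlapped through Rragc S74N/+ replicate 3, and the Rragc S74N/+ value was the higher one in 14 of the 16 pairs of livers across the genotypes. The means were 8.32 ± 4.53 and 16.4 ± 7.58 (SD, n = 4 each). Between the genotypes the log2 difference was 0.93 with a standard error of 0.61 and a 95% interval from -0.39 to 2.25 (limma adjusted p = 0.846, exact two-sided permutation p = 0.143). With 3 to 30 reads per liver, neither no difference nor a difference of 2 on the log2 scale lay outside this interval.

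Cxcl1, which recruits neutrophils through Cxcr2, had normalized counts of 5.59, 1.87, 26.9 and 0 in the Rragc+/+ livers, against 13.8, 3.56, 1.11 and 35.9 in the Rragc S74N/+ livers. High and low livers were found in both genotypes, and the largest values were those of Rragc S74N/+ replicate 4 with 44 reads and Rragc+/+ replicate 3 with 19 reads. The 0 reads of Rragc+/+ replicate 4 allow a level of up to 2.80, the value of 3 reads in that liver. The means were 8.59 ± 12.4 and 13.6 ± 15.9 (SD, n = 4 each). This gave a log2 difference of 0.83 with a standard error of 1.15 and a 95% interval from -1.65 to 3.30 (limma adjusted p = 0.883, exact two-sided permutation p = 0.6). Within the genotypes the variance was 18.4 times that of counting alone, against 2.95 times for Il1b and 2.68 times for Cxcl13. Reads carry no molecular identifiers, so counting here means reads and not independent molecules. In 3-month-old mice alone its log2 difference was 0.022.

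Myeloid markers were set beside Cxcl1 and Il1b. Of 14 monocyte and neutrophil markers 8 were in the table and 4 were tested, and Ly6c2, Itgam, Csf3r and Retnlg had no reads in at least 1 liver. Their sum was 320, 311, 245 and 178 in the Rragc+/+ livers, against 393, 548, 220 and 515 in the Rragc S74N/+ livers. The 2.5-month-old liver of each genotype had the lowest sum of its genotype and also the lowest Il1b and the lowest Cxcl1. Lyz2, which encodes lysozyme, had a log2 fold change of 0.74 and Plac8, a monocyte gene, one of 2.15, each with an unadjusted limma p under 0.05 and an adjusted p of 0.846. Plac8 had a Rragc+/+ mean of 9.28 and reached the mean of 10 only through the Rragc S74N/+ livers. Of the 4 tested markers 3 were higher and 1 lower by sign, and the calgranulin genes S100a8 (38.98 ± 32.8 and 34.01 ± 7.59) and S100a9 (25.4 ± 19.9 and 20.4 ± 19.998) had lower means in Rragc S74N/+ (SD, n = 4 each), with log2 fold changes of 0.30 and -0.48, so that mean and log2 value differ in sign for S100a8. Among neutrophil granule genes Mpo, Elane, Camp, Ltf, Ngp and Fcnb were not analysed here. The part of these cells in the levels of Il1b and Cxcl1 was not tested.

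Of the partners of Il1b, the antagonist Il1rn, which blocks the receptor, had normalized counts of 8.39, 5.61, 7.07 and 3.74 in the Rragc+/+ livers, against 5.51, 16, 23.4 and 46.5 in the Rragc S74N/+ livers. Of the Rragc S74N/+ livers 3 were above the Rragc+/+ range and replicate 1 lay within it. On the log2 scale the difference was 1.44 with a standard error of 0.64 (unadjusted limma p under 0.05, adjusted p = 0.846). The Rragc+/+ mean of Il1rn was 6.20, so it reached the mean of 10 only through the Rragc S74N/+ livers. The signaling receptor Il1r1 was at 120 ± 28.9 and 94.2 ± 58.1 and its accessory chain Il1rap at 79.3 ± 29.1 and 94.2 ± 15.7 (SD, n = 4 each), and both overlapped. Il1a and the decoy receptor Il1r2 were not analysed here. Of 26 listed genes of the interleukin 1 system 22 were in the table and 16 were tested. None passed adjustment, 1 had an unadjusted p under 0.05 (5.17% of all tested genes did), 11 were higher and 5 lower by sign (51.3% of all tested genes were higher), and their median log2 fold change was 0.26. The 1 gene under 0.05 was Il1rn, so these counts are a description. Irak3, an inhibitor of signaling from the receptor, was under the mean required and had counts of 2.11 ± 1.41 and 10.3 ± 8.21 (SD, n = 4 each).

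NF-kB genes, which include targets shared with Cxcl1 and Il1b, were read from a list of 14, of which 13 were in the table and 12 were tested. None passed adjustment and 1 had an unadjusted p under 0.05 (5.17% of all tested genes did). By sign 8 were higher and 4 lower (51.3% of all tested genes were higher), and the median log2 fold change was 0.23. Nfkbiz, which encodes a nuclear cofactor of NF-kB and is itself induced by interleukin 1, had normalized counts of 21.4, 15.0, 36.8 and 34.6 in the Rragc+/+ livers, against 45.0, 56.0, 69.1 and 53.8 in the Rragc S74N/+ livers. Its groups did not overlap, as for 2.94% of all tested genes. Its log2 difference was 1.10 with a standard error of 0.34 (unadjusted limma p under 0.05, adjusted p = 0.846). It was highest in Rragc S74N/+ replicate 3, the Rragc S74N/+ liver in which Il1b and Cxcl1 were lowest. Among the receptors of Cxcl1, Cxcr2 was under the mean required, with normalized counts of 3.52 ± 3.40 and 9.10 ± 8.58 (SD, n = 4 each), and Cxcr1 was not analysed here.

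Cxcl9, an interferon gamma-induced ligand of Cxcr3 that attracts activated T cells, had normalized counts of 135, 82.3, 112 and 103 in the Rragc+/+ livers, against 110, 137, 79.1 and 353 in the Rragc S74N/+ livers. The 2-month-old Rragc S74N/+ liver stood far above all others, and the remaining 3 lay within or at the edge of the Rragc+/+ range. The means were 108 ± 21.9 and 170 ± 125 (SD, n = 4 each). The log2 difference was 0.43 with a standard error of 0.38 and a 95% interval from -0.40 to 1.26 (limma adjusted p = 0.851, exact two-sided permutation p = 0.543). Without Rragc S74N/+ replicate 4 the mean of that genotype was 109 ± 28.9 (SD, n = 3) and the log2 difference was -0.0033, so the difference rested on that liver. Depth was not limiting, with 71 to 433 reads per liver, and the variance within genotypes was 51.9 times that of counting alone, the highest of the 9.

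The summed level of interferon gamma-induced genes was highest in the same liver as Cxcl9. Of 21 such genes 19 were in the table and 16 were tested, and the summed normalized count of the list was 4583 in Rragc S74N/+ replicate 4 while the rest of that genotype gave 3137 to 3191 and the Rragc+/+ livers 2601 to 3549. Iigp1, an interferon-induced GTPase, made up most of it, with 2847 in that liver and 1798 to 2067 in the rest of its genotype, while Gbp4 at 8.16 and Gbp5 at 8.97 were the lowest of their genotype there. None passed adjustment and 2 had an unadjusted p under 0.05 (5.17% of all tested genes did). By sign 12 were higher and 4 lower (51.3% of all tested genes were higher), and the median log2 fold change was 0.33. Gbp4 and Gbp5 had Rragc+/+ means of 9.49 and 7.51. They reached the mean of 10 only through the Rragc S74N/+ livers, so these counts are a description. Igtp, another such GTPase, had a log2 fold change of 0.68 and Psmb9, an immunoproteasome subunit, one of 0.96, each with an unadjusted limma p under 0.05 and an adjusted p of 0.846. Cxcl11, which shares the receptor of Cxcl9, was not high in that liver, where its count of 7.34 was the lowest of the 8. Cxcl10, the other such ligand, was under the mean required, with counts of 4.80 ± 1.57 and 11.4 ± 6.79 (SD, n = 4 each) and its highest value, 17.9, in that liver. The part of interferon signaling in the level of Cxcl9 was not tested, and Cxcr3 was not analysed here. The 7 T and NK cell markers in the table were all under the mean required, and their sum ran from 25.3 to 67.3 in Rragc+/+ and from 23.0 to 45.7 in the Rragc S74N/+ livers. Of these, Cd4 was at 5.86 ± 3.66 and 0.279 ± 0.557 and Cd2 at 1.17 ± 2.34 and 4.31 ± 0.954 (SD, n = 4 each), both on 8 reads or fewer per liver.

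**Figure D3:**
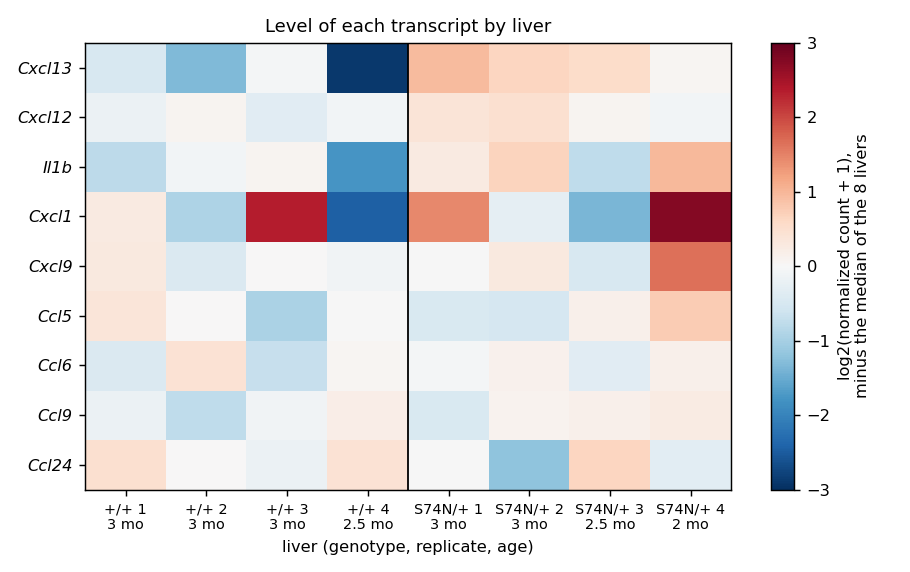
Level of each transcript (rows) in each liver (columns, with genotype, replicate and age in months) as log2(normalized count + 1) minus its median over the 8 livers, in red above and blue below the median. Rragc S74N/+ replicate 4 is the highest liver for Cxcl1, Il1b, Cxcl9, Ccl5 and Ccl9, and Rragc+/+ replicate 4 the lowest for Cxcl13, Il1b and Cxcl1.

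Ccl5, which attracts T cells and monocytes, had normalized counts of 40.1, 30.9, 15.6 and 30.8 in the Rragc+/+ livers, against 22.0, 21.3, 34.5 and 53.0 in the Rragc S74N/+ livers. The 3-month-old Rragc S74N/+ livers were low and the younger ones high, so the genotypes overlapped broadly. The means were 29.3 ± 10.2 and 32.7 ± 14.8 (SD, n = 4 each), on 11 to 65 reads per liver. Between the genotypes the log2 difference was 0.13 with a standard error of 0.41 and a 95% interval from -0.75 to 1.01 (limma adjusted p = 0.951, exact two-sided permutation p = 0.8). In 3-month-old mice alone it was -0.30. Ccr1 and Ccr3, which bind it, were not analysed here.

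Ccl6 and Ccl9 are neighbouring CC chemokines of rodents that are made by myeloid cells and bind Ccr1. Ccl6 had normalized counts of 103, 188, 86.3 and 145 in the Rragc+/+ livers, against 134, 152, 109 and 155 in the Rragc S74N/+ livers. All Rragc S74N/+ values lay inside the Rragc+/+ range. The means were 130 ± 45.6 and 138 ± 21 (SD, n = 4 each), and the log2 difference was 0.13 with a standard error of 0.27 and a 95% interval from -0.46 to 0.71 (limma adjusted p = 0.921, exact two-sided permutation p = 0.657). Ccl9 had normalized counts of 248, 166, 262 and 320 in the Rragc+/+ livers, against 203, 301, 310 and 331 in the Rragc S74N/+ livers. Only Rragc S74N/+ replicate 4 exceeded the Rragc+/+ range. The means were 249 ± 63.5 and 286 ± 57.0 (SD, n = 4 each), and the log2 difference was 0.21 with a standard error of 0.25 and a 95% interval from -0.32 to 0.75 (limma adjusted p = 0.867, exact two-sided permutation p = 0.457). These 2 transcripts had 61 to 201 and 178 to 406 reads per liver, and for neither did the interval include a doubling in either direction. Whether reads that fit both paralogs were counted or dropped is not stated, so both levels are uncertain in that respect.

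Ccl24, which attracts eosinophils through Ccr3, was the only transcript of the group with a log2 difference under 0. Its normalized counts were 25.2, 17.8, 15.6 and 24.3 in the Rragc+/+ livers, against 17.4, 7.11, 27.9 and 13.9 in the Rragc S74N/+ livers. The Rragc S74N/+ livers included both the lowest and the highest of the 8. The means were 20.7 ± 4.76 and 16.6 ± 8.66 (SD, n = 4 each), on 8 to 27 reads per liver. This gave a log2 difference of -0.42 with a standard error of 0.46 and a 95% interval from -1.42 to 0.58 (limma adjusted p = 0.862, exact two-sided permutation p = 0.4).

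Other chemokine ligands were read from a list of 30, of which 10 were in the table and 6 were tested. None passed adjustment or had an unadjusted p under 0.05, where 5.17% of all tested genes did. By sign 2 were higher and 4 lower (51.3% of all tested genes were higher), and their median log2 fold change was -0.20. Cxcl16, a membrane-bound ligand made by macrophages and endothelium, was at 69.97 ± 8.81 and 81.1 ± 15.2, and Ccl25, an attractant of gut-homing lymphocytes, at 44.6 ± 8.96 and 29.7 ± 10.6 (SD, n = 4 each). The platelet chemokine Pf4 was at 11.7 ± 4.28 and 11.6 ± 7.43, Ccl27a at 55.2 ± 22.2 and 44.1 ± 3.74, and Cxcl11 at 21.6 ± 6.68 and 16.4 ± 8.84 (SD, n = 4 each). Ccl21a, whose reads are uncertain because of near-identical copies, was at 11 ± 4.22 and 14.2 ± 11.8 (SD, n = 4 each). Cxcl14 was under the mean required and had values that did not overlap, 1.29 ± 0.884 and 4.64 ± 3.66 (SD, n = 4 each), on 0 to 11 reads. Its Rragc S74N/+ livers ran from 2.45 to 10.1, and the highest Rragc+/+ liver was at 1.87. Among tested genes, which do not include Cxcl14, 1.3% were higher in Rragc S74N/+ without overlap. Of 23 chemokine receptors 11 were in the table and 3 were tested, among them Ccr2, the receptor of inflammatory monocytes, with a log2 fold change of 0.85 and Cx3cr1 with one of 0.56. None of the 3 had an unadjusted limma p under 0.05. Ccr2 had a Rragc+/+ mean of 7.25 and reached the mean of 10 only through the Rragc S74N/+ livers. Cxcr4 and Ackr3, the receptors of Cxcl12, were not analysed here.

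**Figure D4:**
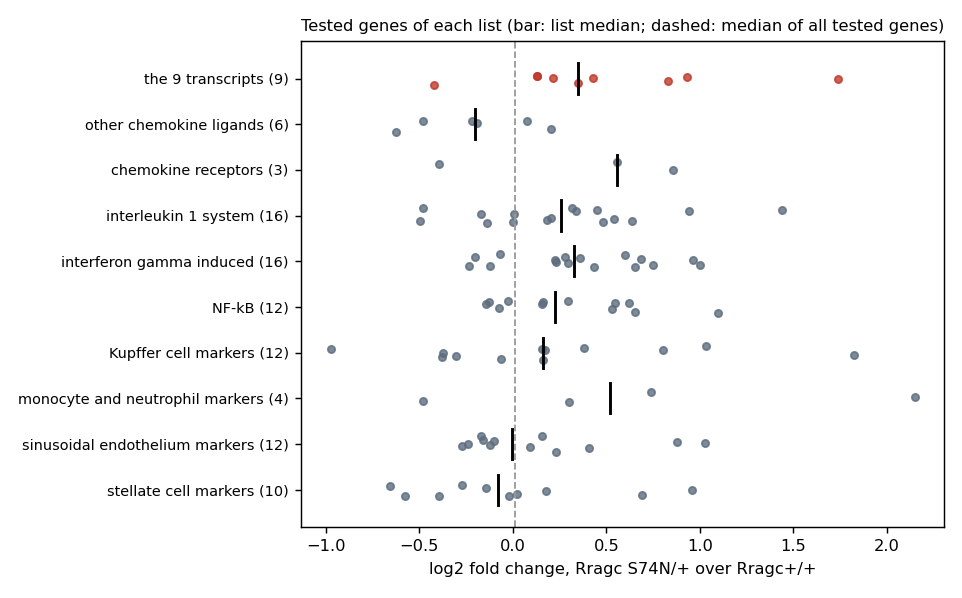
Log2 fold change of Rragc S74N/+ over Rragc+/+ (horizontal axis) for the tested genes of each list (rows, with their number), 1 point per gene, a bar at the median of the list and a dashed line at the median of all tested genes (0.012). The median of the 9 transcripts is 0.35, that of other chemokine ligands -0.20 and that of interferon gamma-induced genes 0.33. The transcripts and lists were chosen with earlier results of these data known, so the medians are a description.

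Pearson and Spearman correlations of log2(normalized count + 1) over the 8 livers were computed for all 36 pairs, and none passed Benjamini-Hochberg adjustment. The strongest relation was a negative one between Il1b and Ccl24, with r = -0.77 (exact permutation p = 0.0262, adjusted p = 0.524) and rho = -0.86 (exact permutation p = 0.0107, adjusted p = 0.386). It was -0.91 without the 2 livers farthest from the median of Il1b and -0.72 after removal of the genotype means. Il1b and Cxcl1 had r = 0.75 (exact permutation p = 0.0309, adjusted p = 0.524) and rho = 0.71 (exact permutation p = 0.0576, adjusted p = 0.518). Their r was 0.77 after removal of the genotype means and 0.36 without the 2 livers farthest from the median of Cxcl1. Leaving out these extreme livers also narrows the range of Cxcl1, so how far the relation rests on them cannot be told. No r was taken within an age, since no age had 6 livers.

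By liver, Rragc S74N/+ replicate 4 was the highest of the 8 for 5 of the 9 transcripts, Cxcl1, Il1b, Cxcl9, Ccl5 and Ccl9. Rragc+/+ replicate 3, which had the fewest reads, was the lowest for Cxcl12, Ccl5 and Ccl6, and Rragc+/+ replicate 4 for Cxcl13, Il1b and Cxcl1. All 10 hepatocyte markers had reads in every liver. Of these 9 were higher and 1 lower in Rragc S74N/+ by sign (51.3% of all tested genes were higher). None of the 10 had an unadjusted limma p under 0.05 (5.17% of all tested genes did), and their median log2 fold change was 0.40. Their sum ran from 2.78e+05 to 4.11e+05 in Rragc+/+ and from 3.04e+05 to 5.34e+05 in the Rragc S74N/+ livers and was highest in replicate 4 of the latter, and its part in the levels of the 9 transcripts was not tested.

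As a description of these 8 livers, the tested genes whose pattern was most like that of each transcript were found by Pearson r of log2(normalized count + 1). For Cxcl13 they were Pabpc4 (r = 0.96) and Fgd5 (0.93), for Cxcl12 Rpl7-ps7 and Map3k13 (0.94 each), for Il1b Siah2 and Cbx3 (0.98 each) and for Cxcl1 Ankfy1 (0.99) and Nbr1 (0.97). For Cxcl9 they were Rbm12 (0.96) and Acss2 (0.93), for Ccl5 Slc8a1 (0.98) and Cux2 (0.94), for Ccl6 Fkbp9 (0.97) and Ebag9 (0.95), for Ccl9 Cadm1 (0.97) and Taf15 (0.95) and for Ccl24 Per3 and Casc4 (0.96 each). None of the other 8 transcripts was among the most alike of any member. An r of at least 0.9 was reached by 164 genes for Il1b and 127 for Cxcl1, and by 5 to 17 for each of the others, so single names carry little weight. The livers share their libraries and their size factors across all genes.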

How the data were processed

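Livers of 4 Rragc+/+ and 4 Rragc S74N/+ mice were grouped by the genotype in the labels. The authors made libraries with the QuantSeq 3′ mRNA-Seq kit (FWD) and used the nextpresso pipeline, in which read quality was checked with FastQC 0.11.7, reads were aligned to GRCm38 with TopHat2 2.0.10, Bowtie 1.0.0 and SAMtools 0.1.19, counted by strand with HTSeq 0.6.1 against GENCODE and scaled with DESeq (versions from the submitters' processing notes). The deposited signal is thus a read count, normalized for depth. Every value (100%) was a whole multiple of the value of 1 read, within a relative tolerance of 1e-06, so whole reads were recovered. Their total per liver lay between 4313076 and 6632108 and the size factors between 0.707 and 1.23. No molecular identifiers are stated, and intervals and floors of 3 reads cover counting error only.

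Genotypes were compared with limma 3.58.1 in R 4.3.3 (mean-variance trend, genotype the only term) on log2(normalized count + 1), with a minimum mean of 10 (11174 genes) and Benjamini-Hochberg adjustment at 0.05. This scale understates changes of low genes. Exact two-sided permutation tests used Python 3.11.15 and scipy 1.17.1. Coordinates are those of GENCODE M21, in which 14458 of the table's names were found, a neighbouring release of the one the authors used. Alternatives were pseudocounts of 0.1 and 5, a minimum mean of 50 or none, TMM and upper-quartile scaling, no trend, edgeR 4.0.16 and DESeq2 1.42.0 on the recovered reads (1 and 10 genes past the threshold), age as a covariate or factor, 3-month-old mice alone, each liver left out and, chosen after seeing the data, Kupffer cell marker level as a covariate. The scripts were tested on simulated data. The members and lists were chosen with earlier results of these data known. Named were the 9 transcripts, their receptors, Il1rn and Il1rap, every tested chemokine ligand, listed genes whose groups did not overlap or whose unadjusted p was under 0.05, and the 2 genes most alike to each member. Other listed genes named here (Cxcl10, Ccr2, Cx3cr1, Iigp1, Gbp4, Gbp5, S100a8, S100a9, Ighm, Cd79a, Cd79b and those named for having no reads in some liver) fall outside this rule and were chosen after their values were seen. Some listed genes are not reported here.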

Additional observations from a re-analysis of the deposited data

Results flagged for a closer look

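Within each genotype 39 values were examined, the 9 transcripts, genes and summed lists among them, which gives 78 groups of 4 livers. In 6 cases 1 liver lay far from the other 3 of its genotype, where 3.9 would by chance, and none of the 9 transcripts was among them. No explanation was tested.

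The summed normalized count of interferon gamma-induced genes was 4583 in Rragc S74N/+ replicate 4, the liver with the high Cxcl9, against 3137 to 3191 in the others of its genotype. It was 3549 in Rragc+/+ replicate 3 against 2601 to 2732. Psmb9 of that list was also high in Rragc+/+ replicate 3, at 56.6 against 29.9 to 31.8. The sinusoidal endothelial markers summed to 2012 in the same liver, against 2652 to 2770. Other chemokine ligands summed to 199 in Rragc+/+ replicate 4, against 242 to 246. The cholangiocyte markers summed to 117 in Rragc S74N/+ replicate 3, against 362 to 380.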

How the results depend on the processing

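None of the 9 transcripts passed the adjusted threshold under any setting tried, and 0 of 36 pairs did. Over all genes the count past the threshold was 1. It was 0 without the trend, with age as a covariate and in 3-month-old mice alone, 3 with age as a factor and 10 with DESeq2, and 0 to 2 in the fits that each omitted 1 liver, with 2 coming without Rragc S74N/+ replicate 3. The cause was not tested. Ccl5 reversed to a log2 fold change of -0.14 with age as a covariate, -0.16 with age as a factor and -0.30 in 3-month-old mice. When a liver was left out, Ccl5 ran from -0.14 to 0.30, Ccl6 from -0.047 to 0.32, Cxcl9 from -0.0033 to 0.71, Cxcl1 from 0.075 to 1.68, Il1b from 0.55 to 1.28, Ccl9 from 0.033 to 0.37 and Ccl24 from -0.71 to -0.096. The negative values came without Rragc+/+ replicate 3 for Ccl5 and Ccl6, and without Rragc S74N/+ replicate 4 for Ccl5 and Cxcl9. Cxcl12 ran from 0.34 to 0.59 under 13 alternatives, with an unadjusted p under 0.05 in 2 of them. With 1 liver omitted Cxcl12 ran from 0.26 to 0.45, with 1 of 8 under 0.05. Cxcl13 ran from 1.19 to 2.12 under 12 alternatives, with an unadjusted p under 0.05 in 11 of them. With 1 liver omitted it ran from 1.17 to 2.12, with 7 of 8 under 0.05. These counts are a description, since Cxcl13 reached the minimum mean only through the Rragc S74N/+ livers. Of the log2 fold changes of the 9 transcripts, 109 kept their direction and side and 3 reversed under the other settings, and 68 and 4 did when a liver was left out. With a mean of at least 50 only 4 of the 9 transcripts remained, so the others have no value there. No paired analysis was possible because the labels tie no Rragc+/+ mouse to a Rragc S74N/+ mouse, and replicate numbers were given in the order of the samples. Cxcl13, Il1b, Cxcl1 and Ccl24 had under 50 reads per liver, and the variance within genotypes was above that of read counting for all 9 transcripts.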
